A study of Homo sapiens with 24 samples.

Results

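The hypoxia response of T47D cells was set against the responses of 3 other cancer cell lines, gene by gene, in RNA-seq counts of 24 libraries. The quantity compared was the log2 fold change in T47D (hypoxia over normoxia) minus the mean of the log2 fold changes in A549, HCT116 and PC3, so that a positive difference is a larger rise or a smaller fall in T47D. All genes with enough counts entered the comparison, which were 16089 of the 23106 gene symbols counted. T47D is an established line from breast cancer, A549 from lung cancer, HCT116 from colorectal cancer and PC3 from prostate cancer. Each line was grown in normoxia (21% oxygen) or kept in hypoxia (0.5% oxygen) for 16 h, with 3 libraries of polyadenylated RNA in each of the 8 groups. No line carried an added gene or drug. T47D was grown in DMEM, A549 and PC3 in F12K and HCT116 in McCoy's 5a, all with fetal bovine serum, so the line and its medium cannot be told apart. The labels do not say whether the 3 libraries of a group were separate cultures, and p values measure the spread between these libraries, which may be technical.

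Cells answer low oxygen mainly through the hypoxia-inducible factors (HIFs), pairs of an oxygen-sensitive alpha subunit (HIF-1α, encoded by HIF1A, or HIF-2α, encoded by EPAS1) and a stable beta subunit (ARNT). With oxygen present, prolyl hydroxylases (EGLN1, EGLN2, EGLN3) mark the alpha subunits for capture by VHL and destruction, and without it the pair binds short DNA motifs and raises genes for glycolysis, pH control, blood vessel growth and matrix. T47D is known as a luminal line that depends on the estrogen receptor and also carries the progesterone receptor, and its p53 is mutant, while PC3 lacks p53 and A549 and HCT116 carry the wild-type protein.

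The smallest library held 22698584 counts and the largest 62850747, and 3 counts, taken as the smallest level that can be told from 0, lay at 0.0436 to 0.132 CPM (counts-per-million of the TMM-scaled library). This floor covers counting error only. The T47D libraries of replicate 3 stood apart from the other 22 libraries. The SD of their log2 deviations from their group mean was 0.466 in hypoxia and 0.427 in normoxia, against 0.261 to 0.387 elsewhere. Of 14 markers of luminal breast cells, 13 were above 1 CPM in every T47D library, with ESR1 (the estrogen receptor) between 108 and 177 CPM and PGR (the progesterone receptor) between 534 and 952 CPM. The exception was TFF1, at 0.733 to 2.79 CPM in normoxia. All 6 colorectal, 4 lung, 3 endothelial and 3 basal markers were under 1 CPM in every T47D library. Among prostate markers, KLK3 was at 0 and HOXB13 at most at 0.0366 CPM, and among fibroblast markers COL1A1 alone passed 1 CPM, at 30.2 to 54.9 CPM. By a rule set after seeing the data (group means over 100 CPM in every group of the other lines and under 1 CPM in normoxic T47D), 7 genes of the other lines were nearly absent from T47D. LDHB, CAV1, MET, GSTP1, CAV2, MSN and TES were under 1 CPM in every T47D library, with CAV2, MSN and TES at 0 counts throughout.

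T47D responded to hypoxia differently from the mean of the other lines in 385 genes, which is 2.39% of the genes tested (edgeR's quasi-likelihood test, Benjamini-Hochberg adjusted p under 0.05 and a difference in fold change over 1.2). The difference was positive in 247 genes (1.54%) and negative in 138 (0.858%), and 2138 genes had an unadjusted p under 0.05. As context, hypoxia itself changed 3830 genes in T47D (23.8%, with 13.9% raised and 9.94% lowered), 7583 in the mean of the other lines (47.1%, with 25.2% raised and 22% lowered), 2609 in A549 (16.2%), 8054 in HCT116 (50.1%) and 1292 in PC3 (8.03%). PC3 thus gave the fewest calls and HCT116 the most. In 29.5% of genes tested the normoxic and hypoxic T47D libraries did not overlap. T47D differed from A549 alone in 340 genes (2.11%), from PC3 alone in 362 (2.25%) and from HCT116 alone in 1460 (9.07%), and in 62 genes it differed from each of the 3 lines in the same direction, upward in 51 (0.317%) and downward in 11 (0.0684%).

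Against the mean of the other lines, a stronger response in T47D was the most frequent pattern. In 199 genes T47D rose more than that mean, with a median log2 fold change of 2.01 in T47D and 0.33 in the others. Of the 199, 46 differed from each of the 3 lines. In 30 genes T47D fell more. A weaker response made up the next group, with 91 genes that rose in the mean of the other lines (median 0.99) and rose less or did not pass in T47D (median -0.0036), and 26 genes that fell in the mean of the other lines (median -0.77) and did not pass or fell less in T47D (median 0.36). The remaining 39 genes moved in opposite directions, upward in T47D in 22 and downward in 17. Against HCT116 alone, in place of the mean, 1178 of 1460 calls were weaker responses and 210 stronger. Of the genes that rose more in T47D, 124 of 199 (62.3%) had a normoxic T47D level below that of each other line, against 26.7% of all genes tested, and 70 (35.2%) had a hypoxic level below each other line, against 26.2%. The normoxic level is part of the difference itself, so it is not an independent measure. Leaving out the normoxic T47D library of replicate 2 lowered the calls to 211, and leaving out replicate 3 of T47D in both states, a choice made after seeing the data, gave 474, of which 284 were among the 385. With scaling by total counts, which moved the median difference over all genes from 0.05 to -0.04, 51.7% of calls were positive in place of 64.2%.

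**Figure D1:**
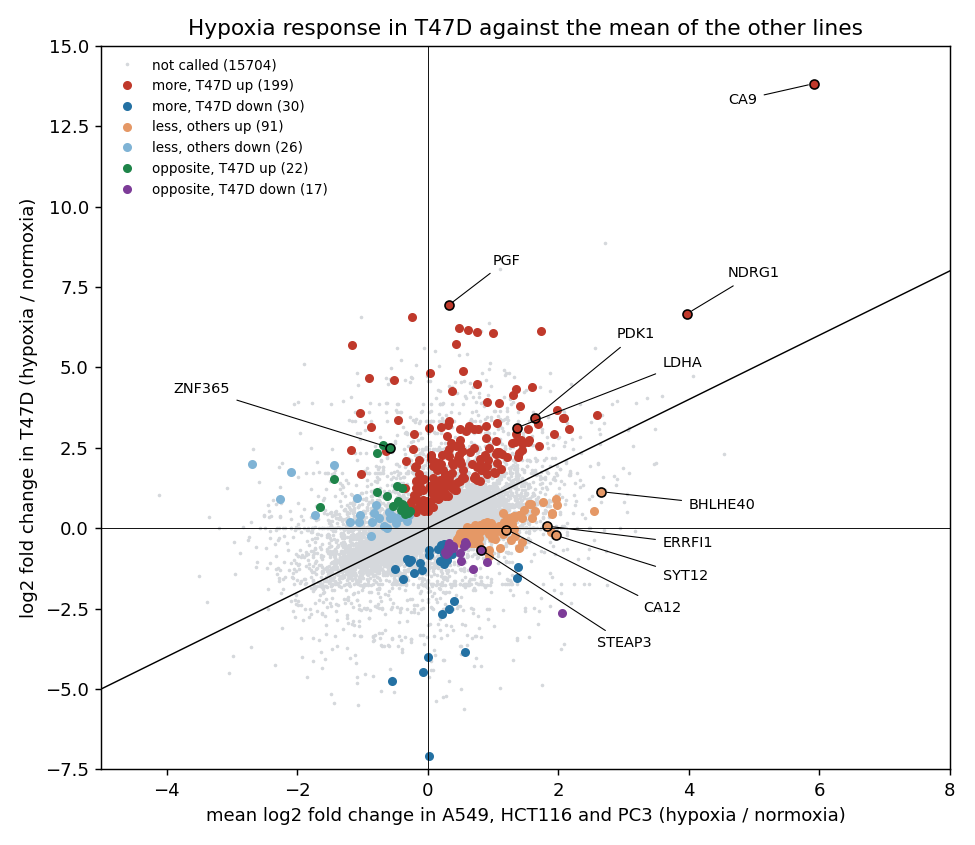
Each point is a gene, with its mean log2 fold change (hypoxia over normoxia) in A549, HCT116 and PC3 on the horizontal axis and its log2 fold change in T47D on the vertical axis. The diagonal marks equal responses, colored points are the 385 called genes by class, and the largest class is the 199 genes that rose more in T47D. The fitted value of CA9 depends on the prior count, since its normoxic T47D libraries had 0 counts.

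The promoters of 5 genes that kept their call in all 44 alternative settings are shown here as examples of the classes of response, chosen after their values were seen. LDHA, CA9 and PGF rose more in T47D than in each other line, ERRFI1 rose less in T47D than in each, and STEAP3 moved in opposite directions. The sequences are the 250 bases before the RefSeq start, read 5′ to 3′ on the strand of the gene, and each matched GRCh37 exactly once: LDHA at chr11:18415860-18416109 (plus strand), CA9 at chr9:35673675-35673924 (plus strand), PGF at chr14:75422468-75422717 (minus strand), ERRFI1 at chr1:8086370-8086619 (minus strand) and STEAP3 at chr2:119981160-119981409 (plus strand). Capitals mark the core HIF motif, ACGTG or GCGTG on either strand. CA9 held 1 match, 14 to 18 bases before the start. LDHA held 5, of which 4 came from CACGTG, present at 82 to 87 and at 180 to 185 bases before the start and read on both strands. PGF, ERRFI1 and STEAP3 held none in this window.
LDHA: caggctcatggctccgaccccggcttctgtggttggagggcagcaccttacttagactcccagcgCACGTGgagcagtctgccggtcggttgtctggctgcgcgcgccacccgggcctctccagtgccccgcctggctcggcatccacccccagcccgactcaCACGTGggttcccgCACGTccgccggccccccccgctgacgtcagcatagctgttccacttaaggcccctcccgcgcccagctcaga
CA9: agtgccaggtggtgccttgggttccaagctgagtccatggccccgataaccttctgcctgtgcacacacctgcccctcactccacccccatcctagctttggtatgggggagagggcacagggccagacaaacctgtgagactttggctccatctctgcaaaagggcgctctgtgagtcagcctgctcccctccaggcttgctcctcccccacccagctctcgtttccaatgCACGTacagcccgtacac
PGF: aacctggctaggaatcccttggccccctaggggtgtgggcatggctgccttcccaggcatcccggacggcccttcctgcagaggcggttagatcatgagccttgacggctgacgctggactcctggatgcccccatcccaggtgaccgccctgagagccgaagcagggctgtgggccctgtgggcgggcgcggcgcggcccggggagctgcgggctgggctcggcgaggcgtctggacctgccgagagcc
ERRFI1: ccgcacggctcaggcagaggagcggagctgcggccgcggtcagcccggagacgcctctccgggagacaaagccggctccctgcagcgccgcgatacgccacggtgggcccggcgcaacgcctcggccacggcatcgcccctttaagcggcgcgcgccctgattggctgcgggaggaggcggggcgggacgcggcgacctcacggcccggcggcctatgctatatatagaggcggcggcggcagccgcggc
STEAP3: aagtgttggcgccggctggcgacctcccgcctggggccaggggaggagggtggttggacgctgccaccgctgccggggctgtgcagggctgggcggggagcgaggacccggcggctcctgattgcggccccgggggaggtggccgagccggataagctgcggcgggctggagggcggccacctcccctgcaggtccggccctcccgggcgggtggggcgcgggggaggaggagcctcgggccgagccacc
Either motif lay in the window of 55.1% of the 12156 tested genes with a RefSeq promoter and of 43.1% of all 27305 promoters in the table. Among the called genes the share was 55.6% of 302, and by class it was 57.6% of the 151 genes that rose more in T47D, 58% of the 69 genes raised less or not called in T47D, and 40.0% of the 20 genes lowered less or not called in T47D. A match is a description of the letters and not evidence of binding, and distant sites were not examined.

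Glycolysis was the list with the largest share of stronger responses. Of 23 genes for glucose uptake, glycolysis and lactate export, 10 were called as rising more in T47D (43.5%, against 1.54% of all genes tested). They were PDK1, LDHA, PGK1, SLC16A3, PFKP, ENO1, TPI1, PFKFB4, ALDOA and PGAM1. LDHA alone of the 23 differed from each of the other lines taken singly. HK1 alone was called as rising less than in the mean of the other lines. Hypoxia raised all 23 in T47D, against 13.9% of all genes tested, and 21 in the mean of the others, against 25.2%. The median log2 fold change was 2.56 in T47D, 1.52 in A549, 2.10 in HCT116 and 0.66 in PC3, and the median difference was 0.72, against 0.05 over all genes tested. In normoxia T47D had the lowest level of the 4 lines in 14 of the 23 genes and in hypoxia in 7, and the median gap between T47D and the mean of the other lines went from -1.04 to -0.07 on the log2 scale.

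LDHA encodes the lactate dehydrogenase subunit that favors the step from pyruvate to lactate. Its level in T47D was 523, 329 and 517 CPM in the normoxic libraries and 3798, 3698 and 4474 CPM in the hypoxic ones. The normoxic T47D libraries lay below every normoxic library of the other lines (1087 CPM or more), and the hypoxic ones lay below every hypoxic library of the other lines (4704 CPM or more), so the larger rise ended at a lower level. The log2 fold change of LDHA was 3.13 in T47D, 1.44 in A549, 2.03 in HCT116 and 0.66 in PC3, a difference of 1.75 (SE 0.22, adjusted p = 3.85e-05), and T47D differed from each line. LDHB, the subunit that favors the reverse step, was at most 0.0928 CPM in the T47D libraries, while its lowest group mean in the other lines was 453 CPM.

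PDK1, a kinase that holds pyruvate back from mitochondrial oxidation, showed the same direction with another starting point. T47D had 15.7, 11.1 and 10.7 CPM in normoxia and 142, 143 and 121 CPM in hypoxia. The normoxic values lay above those of A549 (5.45 to 8.36 CPM) and below those of PC3 (51.2 to 68.1 CPM), whereas the hypoxic values exceeded every library of the other lines, the highest of which was 113 CPM in HCT116. The difference of PDK1 was 1.80 (SE 0.23, adjusted p = 3.85e-05). It did not pass against A549 alone (0.80, adjusted p = 0.156).

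SLC16A3 encodes the exporter of lactate, MCT4. Its levels in T47D were 24.1, 24.5 and 32.8 CPM in normoxia and 279, 316 and 286 CPM in hypoxia, without overlap and below every library of the other lines in the same oxygen state. The log2 fold change of SLC16A3 was 3.43 in T47D, 3.01 in A549, 1.98 in HCT116 and 1.25 in PC3, and the difference was 1.35 (SE 0.18, adjusted p = 0.000132). PGK1, which makes ATP in the payoff phase, went from 545, 289 and 518 CPM to 2652, 2557 and 3203 CPM, with a difference of 1.35 (SE 0.26, adjusted p = 0.00392). Against A549 alone neither SLC16A3 (adjusted p = 0.437) nor PGK1 (adjusted p = 0.152) passed. The remaining 6 genes with a stronger response had differences from 0.69 (PGAM1) to 1.35 (PFKP), and none of them differed from each other line taken singly. HK2, the inducible hexokinase, rose by 3.10 in T47D and 3.09 in the mean of the others, and SLC2A1, the main glucose transporter, had a difference of 0.60 (SE 0.23, adjusted p = 0.219).

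HK1, the constitutive hexokinase, was the exception. It stood at 172, 194 and 296 CPM in normoxic and 383, 386 and 406 CPM in hypoxic T47D, and its log2 fold change of 0.83 compared with 1.14 in A549, 2.98 in HCT116 and 1.17 in PC3. The difference of -0.93 (SE 0.25, adjusted p = 0.0401) was carried by HCT116, since it did not pass against A549 (-0.31, adjusted p = 0.732) or PC3 (-0.34, adjusted p = 0.707) alone. It kept its call in 20 of 44 alternative settings.

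**Figure D2:**
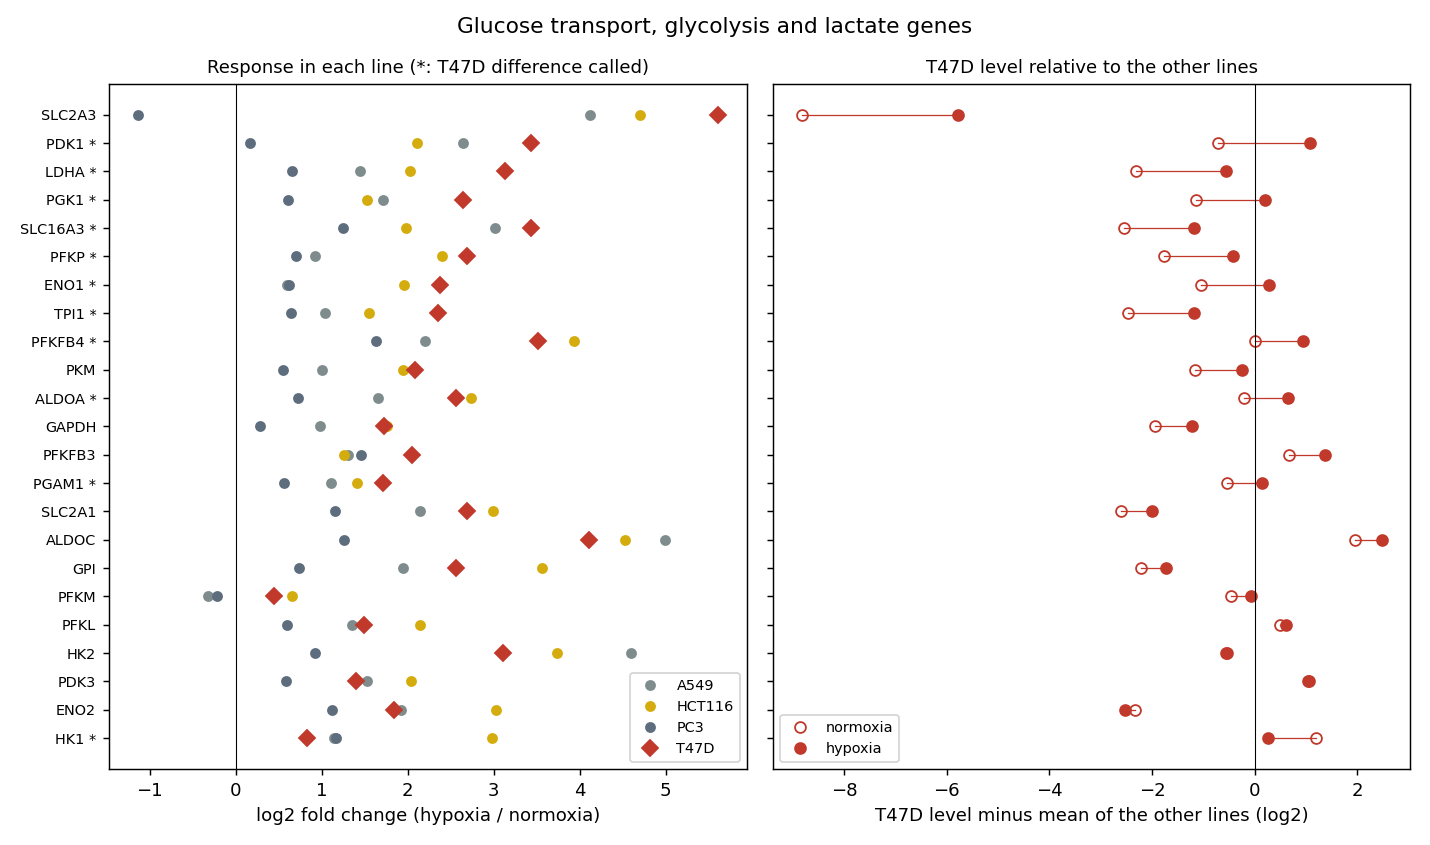
Left, log2 fold change (hypoxia over normoxia) of 23 glycolysis genes in each line, ordered by the difference between T47D (diamonds) and the mean of the other lines, with asterisks at called genes. Right, the T47D level minus the mean of the other lines on a log2 scale in normoxia (open) and hypoxia (filled), where the median gap went from -1.04 to -0.07.

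Carbonic anhydrases differed in both directions. CA9, the cell-surface enzyme that turns carbon dioxide into bicarbonate and acid in hypoxic tumors, had 0 counts in each normoxic T47D library and 42.1, 34.2 and 29.8 CPM in the hypoxic ones. Against the floor of 3 counts per library the rise was at least 659-fold, or 9.36 on the log2 scale. In the other lines CA9 rose by 8.40 in A549 (to 106 CPM or more), 7.48 in HCT116 (to 17.2 CPM or more) and 1.86 in PC3 (from 1.14 to 1.28 CPM to 3.73 to 4.83 CPM). Hypoxic T47D thus lay between A549 and HCT116. The T47D rise exceeded that of A549 (adjusted p = 0.0269), HCT116 (adjusted p = 0.00732) and PC3 (adjusted p = 7.17e-09). The difference from the mean had an adjusted p of 4.85e-05, and its fitted size depends on the prior count. Normoxic libraries held only 6 to 28 counts of CA9 in A549 and 0 to 10 in HCT116, so the folds of these lines are uncertain as well.

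CA12, another surface carbonic anhydrase and a known target of both hypoxia and the estrogen receptor, had a T47D log2 fold change of -0.04 (adjusted p = 0.903). It was at 500, 512 and 633 CPM in normoxia and 517, 554 and 524 CPM in hypoxia, and these ranges overlapped. In A549 CA12 went from 555 to 691 CPM to 1410 to 1744 CPM, in HCT116 from 3.0 to 4.45 CPM to 8.94 to 14.1 CPM, and in PC3 from 11.5 to 14.9 CPM to 18.6 to 22.8 CPM. The difference was -1.25 (SE 0.20, adjusted p = 0.000833), called against A549 and HCT116 but not against PC3 alone (-0.70, adjusted p = 0.167). Of 15 genes for pH control, 3 were called as rising more in T47D (CA9, SLC16A3 and CA11) and CA12 alone as rising less. These are 20% and 6.67%, against 1.54% and 0.858% of all genes tested. CA11, a secreted relative without catalytic activity, went from 2.23, 2.19 and 1.78 CPM to 6.37, 8.23 and 4.28 CPM with a difference of 1.34 (SE 0.35, adjusted p = 0.0402), and kept its call in 20 of 44 alternative settings.

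PGF, a secreted factor of the VEGF family that acts on blood vessels, had the smallest adjusted p of all genes tested and rose from near absence. Its 3 normoxic T47D libraries held 0, 4 and 4 counts (0, 0.0581 and 0.0637 CPM), and the hypoxic ones had 8.45, 5.45 and 3.62 CPM. The hypoxic T47D values lay above, within and below those of HCT116, which had 5.61 to 6.13 CPM in normoxia and 5.38 to 6.61 CPM in hypoxia. The log2 fold change of PGF was 6.94 in T47D, -0.36 in A549, 0.03 in HCT116 and 1.31 in PC3, and the difference of 6.62 (SE 0.51, adjusted p = 2.35e-08) held against each line. Among 26 secreted and angiogenic factors, 3 were called as rising more in T47D (PGF, IGFBP6 and VEGFB) and 1 as rising less (PDGFB). These are 11.5% and 3.85%, against 1.54% and 0.858% of all genes tested. The median difference was 0.03, and PDGFB kept its call in 31 of 44 settings. IGFBP6, which binds insulin-like growth factors, went from 1.86, 2.11 and 2.26 CPM to 10.0, 11.2 and 9.51 CPM, a difference of 1.26 (SE 0.21, adjusted p = 0.00115). It did not pass against HCT116 alone (0.47, adjusted p = 0.235). VEGFB did not pass against A549 or HCT116 alone (adjusted p = 0.064 and 0.188). VEGFA, the main vessel growth factor, had a difference of 0.87 (SE 0.24) that narrowly missed the threshold (adjusted p = 0.0509).

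**Figure D3:**
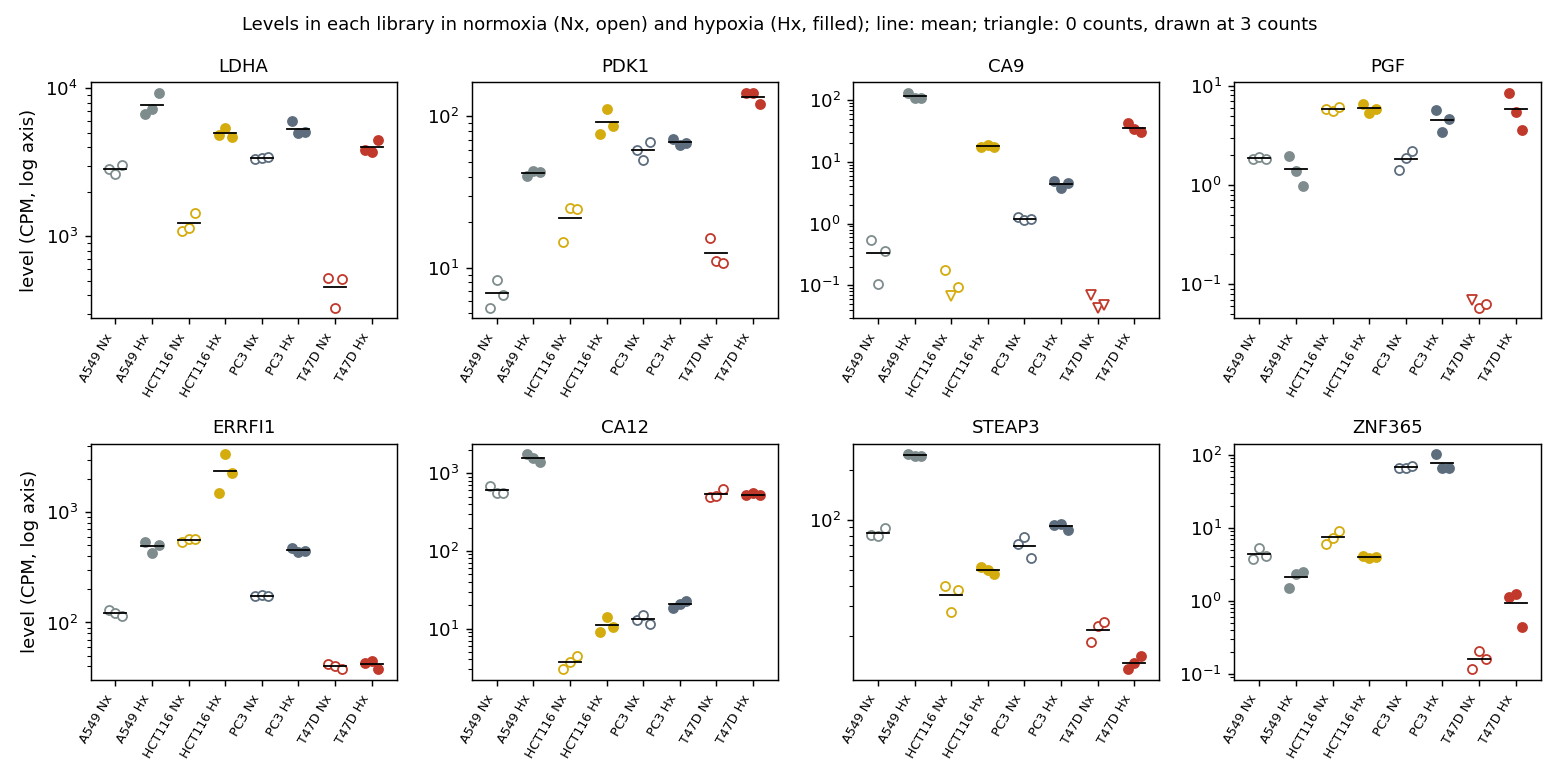
Level in CPM (log axis, scaled separately in each panel) of 8 genes in every library, open in normoxia and filled in hypoxia, with bars at group means and triangles for libraries with 0 counts drawn at 3 counts. LDHA, PDK1, CA9 and PGF rose more in T47D, ERRFI1 and CA12 rose less in T47D, and STEAP3 and ZNF365 moved in opposite directions.

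A list of 48 HIF targets rose in T47D and in the mean of the other lines without exception. It holds the targets shared by all lines of the study and was chosen partly on these libraries, so its direction is not independent evidence. In size, 13 were called as rising more in T47D and 2 as rising less (27.1% and 4.17%, against 1.54% and 0.858% of all genes tested). The median log2 fold change was 1.93 in T47D, 1.55 in A549, 2.33 in HCT116 and 0.81 in PC3. The median difference was 0.26. NDRG1, LDHA and C8orf58 alone of the 48 differed from each of the other lines taken singly. Of the 13, 7 were glycolysis genes, and the others were NDRG1, C8orf58, ZNF395, P4HA1, EGLN1 and FUT11. NDRG1, a stress-response protein of tumor cells, had 1.83, 2.44 and 4.03 CPM in normoxic T47D and 252, 339 and 265 CPM in hypoxic T47D. Both states lay below the other lines, whose lowest library had 40.6 CPM in normoxia and 690 CPM in hypoxia. The log2 fold change of NDRG1 was 6.68 in T47D, 4.64 in A549, 4.82 in HCT116 and 2.48 in PC3, a difference of 2.70 (SE 0.38, adjusted p = 0.000144) that held against each line.

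The 2 targets with a weaker response were BHLHE40 and KDM4B. BHLHE40, a transcriptional repressor of the clock, went from 102, 161 and 170 CPM to 311, 349 and 291 CPM in T47D, and from 14.9 to 22.4 CPM to 278 to 689 CPM in HCT116. The difference was -1.53 (SE 0.27, adjusted p = 0.00185). KDM4B, an oxygen-dependent histone demethylase, went from 125, 188 and 204 CPM to 320, 372 and 271 CPM, above every library of the other lines in the same state, with a difference of -1.06 (SE 0.23, adjusted p = 0.0101). Each passed against HCT116 alone and not against A549 or PC3 (adjusted p between 0.196 and 0.824). KDM4B was the only call among 22 jumonji demethylases and other 2-oxoglutarate oxygenases (4.55%, against 0.858% of all genes tested). The median difference of that list was -0.05.

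Among 11 measured genes of the HIF pathway itself, CITED2 and EGLN1 rose more in T47D and EPAS1 rose less. These are 18.2% and 9.09%, against 1.54% and 0.858% of all genes tested. EGLN1, the main oxygen sensor, was at 35.6, 37.8 and 52.7 CPM in normoxia and 229, 241 and 216 CPM in hypoxia. Its difference was 1.0 (SE 0.19, adjusted p = 0.00373), and its log2 fold change of 2.44 stood beside 2.37 in HCT116 (adjusted p = 0.927 for that pair). CITED2, which competes with HIF for its coactivator, went from 31.7, 38.5 and 64.7 CPM to 255, 304 and 297 CPM, above all hypoxic libraries of the other lines, and had a difference of 1.13 (SE 0.25, adjusted p = 0.0126). It did not pass against A549 alone (0.23, adjusted p = 0.836). EPAS1 had a T47D log2 fold change of 0.05 (adjusted p = 0.92), at 27.3, 43.5 and 61.4 CPM in normoxia and 41.9, 52.8 and 42.6 CPM in hypoxia, against a log2 fold change of 2.17 in HCT116. Its difference of -1.04 (SE 0.28, adjusted p = 0.0483) was called in 15 of 44 alternative settings. HIF1A fell in T47D (-0.64) and in the mean of the others (-0.59), and the difference of -0.05 (SE 0.18) did not pass (adjusted p = 1). ARNT (0.21, SE 0.17), ARNT2 (0.48, SE 0.27), EGLN2 (-0.05, SE 0.24), EGLN3 (0.68, SE 0.32), HIF1AN (0.10, SE 0.19), VHL (0.53, SE 0.26) and CITED4 (-0.21, SE 0.37) gave differences that did not pass the test. These are mRNA levels, and the proteins were not measured here.

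The collagen-modifying enzymes P4HA2, LOX and P4HA1 rose more in T47D. P4HA2, a prolyl hydroxylase of collagen, had 14.3, 13.3 and 19.0 CPM in normoxia and 124, 126 and 109 CPM in hypoxia. In normoxia T47D lay below every library of the other lines, and in hypoxia it was above HCT116 (81.2 to 108 CPM) and PC3 (62.5 to 67.4 CPM) and overlapped A549 (109 to 119 CPM). P4HA2 had a difference of 1.59 (SE 0.19, adjusted p = 2.14e-05) that held against each line. LOX, which cross-links collagen, went from 0.441, 0.378 and 0.637 CPM to 10.9, 12.1 and 6.62 CPM. LOX differed from HCT116, where its log2 fold change was -1.51, and from PC3, but did not pass against A549, where it rose by 4.6 (difference -0.26, adjusted p = 0.907). P4HA1 differed by 1.0 (SE 0.26, adjusted p = 0.0402), with a log2 fold change of 2.94 in T47D and 2.94 in HCT116, and kept its call in 23 of 44 settings, but not with total-count scaling. These 3 were the only calls among 26 genes of collagens and their modifying enzymes (11.5%, against 1.54% of all genes tested). The median difference of that list was 0.09.

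Some of the genes that rose more in T47D did so from a very low level. Of the 385 called genes, 51 stayed under 1 CPM in both T47D states, and 32 of these were among the 199 that rose more. ARHGAP22 had 0 counts in every normoxic T47D library and 8 to 14 counts in the hypoxic ones, at least 3.18-fold higher against the floor. VGLL3, a cofactor of TEAD transcription factors, had 0 counts in normoxia and 5 to 9 in hypoxia, at least 2.41-fold higher, and lost its call without T47D replicate 3. HPCAL4, a neuronal calcium sensor, had at most 0.0232 CPM in normoxia and 0.420 to 0.745 CPM in hypoxia. It lost its call when replicate 2 or replicate 3 of every group was left out. MAP7D2, a microtubule-associated protein, rose further, from 0.0232, 0.131 and 0.0478 CPM to 6.85, 7.19 and 3.0 CPM, with a difference of 5.76 (SE 0.62, adjusted p = 6.99e-06).

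Several of these genes were abundant in other lines. Chosen after their values were seen, AXL, a receptor kinase, had a mean of 0.193 ± 0.125 CPM in normoxic and 1.38 ± 0.363 CPM in hypoxic T47D (SD, n = 3), against group means from 72.7 to 677 CPM elsewhere. PMP22, a membrane protein of myelin, went from 0.0459 ± 0.0412 to 0.291 ± 0.145 CPM, against group means from 16.4 to 96.5 CPM. DAB2, an endocytic adaptor, went from 0.152 ± 0.0755 to 0.925 ± 0.105 CPM, against 4.59 to 39.3 CPM. Their differences were 2.23, 2.69 and 2.08 (adjusted p = 0.00125, 0.00116 and 0.000198). Restricting the test to genes of at least 1 CPM in every line, a filter added after seeing the data, gave 337 calls, 290 of them shared with the 385.

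ERRFI1 had the smallest adjusted p among the genes with a weaker response. It encodes MIG6, a feedback inhibitor of the EGF receptor. Its level in T47D was 42.0, 40.0 and 37.7 CPM in normoxia and 42.9, 44.3 and 37.9 CPM in hypoxia, a log2 fold change of 0.06 (adjusted p = 0.853). The states overlapped, and all 6 libraries lay below every library of the other lines. In A549 ERRFI1 went from 116 to 129 CPM to 427 to 541 CPM, in HCT116 from 535 to 579 CPM to 1512 to 3354 CPM, and in PC3 from 172 to 177 CPM to 435 to 478 CPM. The difference was -1.76 (SE 0.22, adjusted p = 3.15e-05) and held against each line and in every alternative setting.

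In 6 other genes with a weaker response T47D differed from each of the 3 lines. SYT12, a synaptotagmin, had 41.0, 49.8 and 62.6 CPM in normoxic and 34.0, 41.6 and 55.5 CPM in hypoxic T47D, above the other lines except for an overlap with hypoxic A549 (28.1 to 36.1 CPM), and its difference was -2.19 (SE 0.31, adjusted p = 0.000144). PAG1, an adaptor that restrains Src family kinases, was at 13.0, 9.32 and 13.9 CPM and then 12.7, 11.1 and 9.22 CPM, with a difference of -2.02 (SE 0.30, adjusted p = 0.000374). ESPN, an actin bundling protein, went from 36.2, 50.7 and 43.3 CPM to 25.1, 25.5 and 34.3 CPM, a change in T47D that did not pass by itself (adjusted p = 0.063). Its difference of -2.02 (SE 0.32, adjusted p = 0.000706) included a rise in A549 from 0 to 0.144 CPM to 0.18 to 0.344 CPM, close to the floor. GRB10, an adaptor of the insulin receptor, had 51.5, 63.9 and 62.5 CPM and then 55.7, 64.4 and 48.9 CPM, with a difference of -1.14 (SE 0.18, adjusted p = 0.000552). CARD10, a scaffold upstream of NF-kB, had 15.9, 22.7 and 16.0 CPM and then 14.5, 11.8 and 13.6 CPM, with a difference of -1.12 (SE 0.20, adjusted p = 0.0018). SCAMP4, a secretory carrier membrane protein outside the list of genes named by rule, had the smallest difference of these, -0.86 (SE 0.16, adjusted p = 0.00299).

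Estrogen receptor targets as a list gave 1 call, CA12, and a positive difference in only 8 of 30 genes. Of 30 genes, edgeR called 0 upward and CA12 alone downward, which is 3.33% against a background of 0.858% in that direction. At an unadjusted p under 0.05 there were 1 upward and 7 downward, against 2138 of all 16089 genes tested in either direction. DESeq2 called 1 upward and 4 downward, and voom called 2 in each direction. Their median difference was -0.35, against 0.05 over all genes tested. In 8 of the 30 at least 1 group had 0 counts, and with those groups set to the floor the median was -0.37. Hypoxia raised 5 and lowered 2 of the 30 in T47D, against 13.9% and 9.94% of all genes tested. Luminal identity genes gave 2 calls of 23, both negative (8.7%, against 0.858% of all genes tested). At an unadjusted p under 0.05 there were 4 negative and 0 positive, with 3 negative by DESeq2 and 2 negative by voom. AGR2, a secreted disulfide isomerase of luminal cells, had 1386, 1577 and 808 CPM in normoxic and 528, 507 and 605 CPM in hypoxic T47D, without overlap. Its difference of -2.59 (SE 0.63, adjusted p = 0.0282) included HCT116, where AGR2 had 0 counts in every normoxic library and at most 0.0766 CPM in hypoxia. It did not pass against A549 or PC3 alone. MLPH, a melanosome transport adaptor, had a difference of -0.71 (SE 0.18, adjusted p = 0.0349) with overlapping T47D states and kept its call in 28 of 44 settings, but not with total-count scaling.

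STEAP3 had the smallest adjusted p among the genes with opposite directions. It encodes the reductase that frees iron from transferrin inside endosomes. In T47D STEAP3 fell from 18.4, 22.7 and 24.1 CPM to 12.6, 13.6 and 15.0 CPM, while A549 went from 80.0 to 88.6 CPM to 241 to 247 CPM, HCT116 from 27.6 to 39.7 CPM to 46.8 to 52.0 CPM and PC3 from 58.7 to 78.5 CPM to 86.5 to 93.9 CPM. The oxygen states did not overlap in any of the 4 lines, and all T47D libraries were below those of the other lines. The log2 fold change was -0.67 in T47D, and the difference was -1.48 (SE 0.17, adjusted p = 1.26e-05). Of 17 metallothioneins and iron genes, FTL and SLC40A1 were called with a positive difference and MT1X and STEAP3 with a negative one. Each pair is 11.8% of the list, against 1.54% and 0.858% of all genes tested, and 10 of the 17 differences were positive. SLC40A1, the iron exporter ferroportin, was at 525, 494 and 516 CPM and then 551, 618 and 602 CPM in T47D, a log2 fold change of 0.21 that did not pass (adjusted p = 0.536), with a difference of 1.25 (SE 0.28, adjusted p = 0.0139). It passed against HCT116 and not against A549 (adjusted p = 0.498) or PC3 (adjusted p = 0.239) alone. In HCT116 SLC40A1 went from 1.94 to 3.89 CPM to 0.485 to 0.984 CPM. FTL, the ferritin light chain, went from 53.2, 55.9 and 88.2 CPM to 108, 119 and 180 CPM in T47D, below every library of the other lines, with a difference of 0.88 (SE 0.23, adjusted p = 0.0392) that kept its call in 22 of 44 settings. FTL and MT1X belong to families with close copies, and reads shared between copies were removed by the authors, so their levels are uncertain.

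ZNF365, MFSD2A, FAM105A and DKK1 rose in T47D and fell in the mean of the other lines. ZNF365, a zinc finger protein, went from 0.116, 0.203 and 0.159 CPM to 1.13, 1.23 and 0.439 CPM in T47D. Its log2 fold change was -1.04 in A549, -0.90 in HCT116 and 0.20 in PC3, where its level was far higher, 65.3 to 70.0 CPM and then 65.5 to 101 CPM. Its difference was 3.08 (SE 0.39, adjusted p = 4.44e-05). MFSD2A, a transporter of lysophospholipids, had 1.53, 1.44 and 1.55 CPM and then 3.73, 3.13 and 2.25 CPM in T47D, with a log2 fold change of 1.01 against -0.84, -0.55 and -0.50 in A549, HCT116 and PC3 (adjusted p = 0.00391). FAM105A rose by 1.24 in T47D with a difference of 1.64 (SE 0.28, adjusted p = 0.00137). DKK1, a secreted Wnt antagonist, rose from 0.650, 0.450 and 0.589 CPM to 1.17, 0.794 and 0.695 CPM in T47D (adjusted p = 0.0354). It fell in the mean of the other lines, whose normoxic libraries had 138 CPM or more, with a difference of 1.2 (SE 0.25, adjusted p = 0.00815). DKK1 kept its call in 38 of 43 settings, but not with voom, nor without hypoxic T47D replicate 1 or normoxic T47D replicate 2.

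CDC42SE1 and EVA1B fell in T47D and differed from each other line. CDC42SE1, a small effector of the CDC42 switch, was at 278, 269 and 290 CPM in normoxia and 135, 126 and 157 CPM in hypoxia. The T47D states did not overlap, and both lay above every library of the other lines, whose log2 fold changes were between -0.41 and -0.11. The difference of CDC42SE1 was -0.74 (SE 0.15, adjusted p = 0.0057). EVA1B, a small membrane protein, went from 1.02, 0.915 and 0.191 CPM to 0.146, 0.171 and 0.0366 CPM, with a difference of -2.83 (SE 0.53, adjusted p = 0.0035), and had 6.49 CPM or more elsewhere. SRPX2, a secreted sushi-repeat protein, passed the same tests on 2 to 4 counts in normoxic and 0 in hypoxic T47D libraries, which is at the floor, so no fold is given. Its call was kept in 33 of 43 settings and lost without T47D replicate 3.

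The p53 list held 3 calls of 25 genes, BTG2, CDKN1A and PLK2, all positive (12%, against 1.54% of all genes tested). The difference itself was positive in 17 of the 25, with a median of 0.16. CDKN1A, the cell cycle inhibitor p21, went from 37.5, 32.1 and 46.2 CPM to 153, 96.5 and 89.6 CPM in T47D, and its log2 fold change of 1.55 compared with -0.10 in A549, 1.58 in HCT116 and 0.12 in PC3. The difference from the mean was 1.02 (SE 0.27, adjusted p = 0.0407), and the difference from HCT116 alone was -0.02. CDKN1A kept its call in 22 of 44 settings, but not with total-count scaling. PLK2, a polo-like kinase, went from 497, 465 and 542 CPM to 759, 792 and 669 CPM in T47D, against log2 fold changes of -0.86 in A549, 0.16 in HCT116 and -0.54 in PC3, a difference of 0.97 (SE 0.17, adjusted p = 0.00191). BTG2, an antiproliferative cofactor, had a difference of 1.29 (SE 0.29, adjusted p = 0.0143). Neither PLK2 nor BTG2 passed against HCT116 alone (adjusted p = 0.226 and 0.204).

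Stress genes gave few calls. Of 26 genes of the integrated stress response, CHAC1 and TRIB3 were called, both with negative differences (7.69%, against 0.858% of all genes tested). The difference was positive in 9 of the 26. TRIB3, a pseudokinase induced by ATF4, had overlapping states in T47D (81.0, 92.9 and 136 CPM, then 103, 102 and 133 CPM) and rose by 0.95 in the mean of the others, a difference of -0.83 (SE 0.19, adjusted p = 0.0195). It did not pass against PC3 alone (-0.35, adjusted p = 0.576). CHAC1, which degrades glutathione, had a difference of -1.17 (SE 0.32, adjusted p = 0.0472), called in 16 of 44 settings. Among 20 endoplasmic reticulum chaperones ERO1L, the oxidase that drives disulfide formation, was the only call (5%, against 1.54% of all genes tested). Its level went from 65.3, 50.9 and 74.4 CPM to 375, 364 and 234 CPM, with a difference of 1.26 (SE 0.22, adjusted p = 0.00195). ERO1L did not pass against HCT116 alone (0.72, adjusted p = 0.0911).

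Lipid genes differed mostly upward from the mean of the other lines. Of 22 genes for fatty acid synthesis and lipid storage, 4 were called upward (DGAT2, LPIN1, ACSL4 and ACSL1) and PLIN2 downward. These are 18.2% and 4.55%, against 1.54% and 0.858% of all genes tested, and 17 of the 22 differences were positive. ACSL1, which activates long-chain fatty acids, went from 76.2, 63.5 and 84.6 CPM to 136, 174 and 140 CPM, a difference of 0.83 (SE 0.17, adjusted p = 0.00857). It did not pass against HCT116 alone (0.47, adjusted p = 0.156). DGAT2 did not pass against A549 or PC3 alone (adjusted p = 0.14 and 0.195), nor LPIN1 against HCT116 or PC3 (0.123 and 0.171). ACSL4 did not pass against A549 or HCT116 (adjusted p = 0.064 and 0.0646). DGAT2 had overlapping T47D states and kept its call in 31 of 44 settings. LPIN1 kept its call in 32 of 44, but not with total-count scaling. PLIN2, the coat protein of lipid droplets, was at 28.2, 23.1 and 33.8 CPM and then 31.7, 25.1 and 30.5 CPM in T47D. Its log2 fold change was 2.02 in A549, 1.0 in HCT116 and 0.24 in PC3, a difference of -1.05 (SE 0.22, adjusted p = 0.00712). PLIN2 did not pass against PC3 alone (-0.21, adjusted p = 0.827). Of 26 sterol synthesis genes, FDPS and MVD were called as rising more in T47D (7.69%, against 1.54% of all genes tested). Neither passed against HCT116 alone (adjusted p = 0.293 and 0.79). The median difference of the list was 0.39. MVD, of the mevalonate pathway, went from 91.2, 109 and 129 CPM to 272, 378 and 511 CPM, and its log2 fold change of 1.82 stood beside 1.68 in HCT116.

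Of 29 clock and MAX network genes, MYCL1 (difference 1.33) was called upward and BHLHE40 downward. Each is 3.45% of the list, against 1.54% and 0.858% of all genes tested. Of 29 immediate early genes, FOS (2.21) and KLF10 (0.93) were called upward (6.9%). SPRY4, a feedback inhibitor of growth factor signaling, was called downward (-1.32), with overlapping T47D states. It is 3.45% of that list. FOS did not pass against A549 (adjusted p = 0.204) or HCT116 (adjusted p = 0.107) alone. It kept its call in 30 of 43 settings. KLF10 did not pass against HCT116 alone (adjusted p = 0.778), nor MYCL1 and SPRY4 against A549 alone (adjusted p = 0.346 and 0.419). Of 25 interferon-stimulated genes, IRF1 alone was called (4%, against 1.54% of all genes tested). Its difference was 0.89 (SE 0.23, adjusted p = 0.0376), and it kept its call in 23 of 44 settings.

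No member was called by edgeR's quasi-likelihood test in 7 lists. At an unadjusted p under 0.05 there were 5 of 75 mitochondrial and 1 of 81 cytosolic ribosomal protein genes, 0 of 81 respiratory chain genes, 3 of 44 replication and cell cycle genes, 4 of 29 keratins, 1 of 20 heat shock genes and 3 of 17 NF-kB and chemokine genes. The same threshold was passed by 2138 of all 16089 genes tested. DESeq2 called 1 heat shock and 1 NF-kB gene, and voom called 1 mitochondrial ribosomal, 2 respiratory chain, 3 keratin and 1 heat shock gene. The difference was positive in 64 of the 75 mitochondrial ribosomal, 78 of the 81 cytosolic ribosomal and 67 of the 81 respiratory chain genes. Their medians were 0.19, 0.27 and 0.11, against 0.05 over all genes tested. These directions rested on 1 replicate of T47D, since without T47D replicate 3 the medians were -0.16, -0.11 and -0.23, and with limma-voom with sample quality weights they were -0.11, -0.051 and -0.19.

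**Figure D4:**
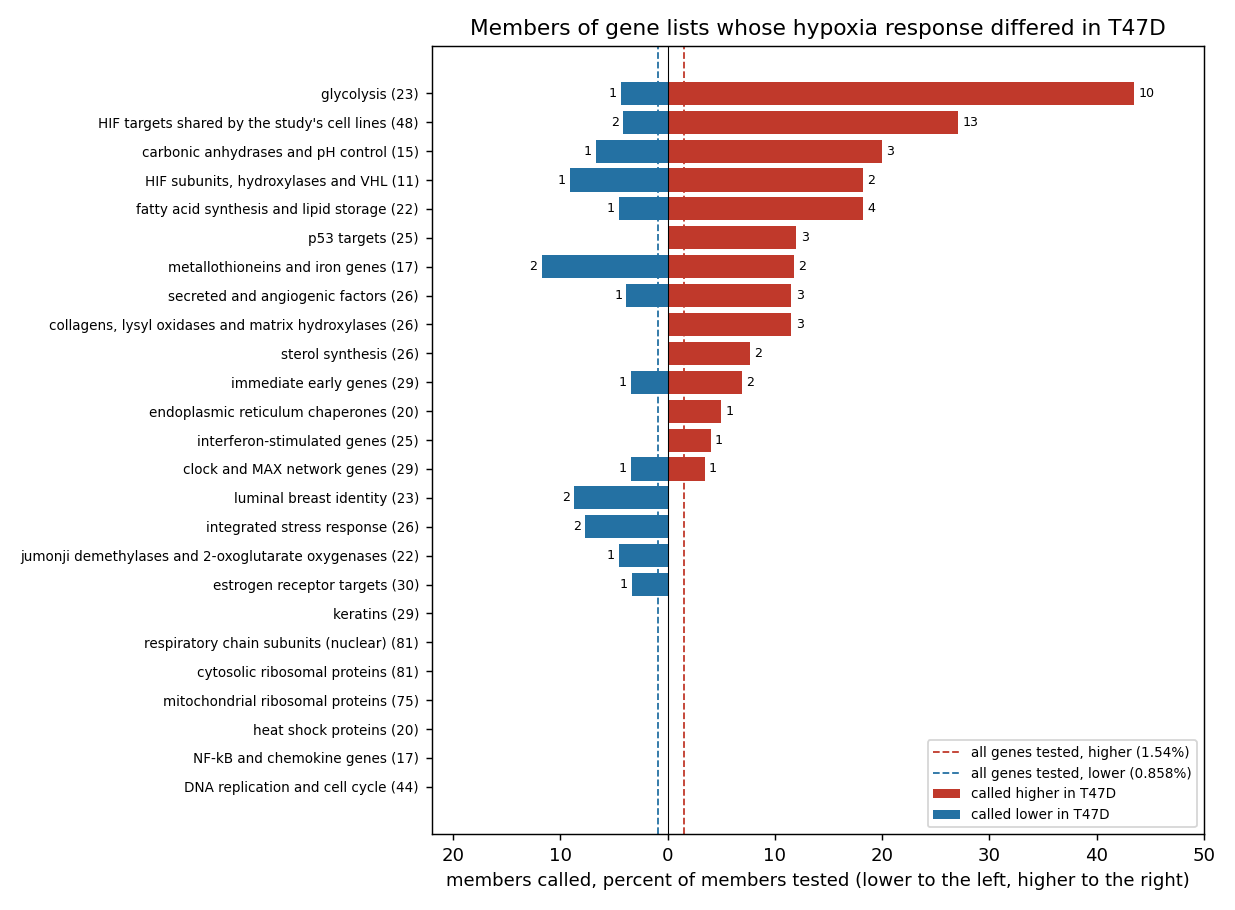
Percent of the measured members of each gene list (number in parentheses) whose hypoxia response was higher (right) or lower (left) in T47D than in the mean of the other lines, with the number of genes at each bar. Dashed lines mark the same shares over all genes tested, 1.54% and 0.858%. Glycolysis has the longest bar, 10 of 23 members.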

How the data were processed

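RNA-seq counts of 24 libraries from T47D, A549, HCT116 and PC3 cells were analyzed, 3 in each of 8 groups, with cell line, oxygen state and replicate number taken from the labels. The members and gene lists were chosen with earlier results of these data known. Per the paper's methods and the submitters' processing notes, the authors trimmed reads (Trim Galore 0.3.3), aligned them to GRCh37 (HISAT2 2.05), removed fragments without a unique position (Picard 2.0.1) and deposited whole-number counts per gene symbol from HTSeq 0.5.4p3, not normalized. The library kit was directional, but the strand setting of the counting is not given in the sources used here, so overlapping and antisense genes are uncertain, as are genes with near-identical copies.

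Computed here in R 4.3.3 with edgeR 4.0.16: filterByExpr by group, TMM scaling, and the quasi-likelihood test (glmQLFit, glmQLFTest) in a fit of all 24 libraries, two-sided, adjusted by the Benjamini-Hochberg method over 16089 genes. Calls were genes past both an adjusted p of 0.05 and a fold of 1.2. Called genes were opposite where T47D and the mean of the other lines were each called with opposite signs, more where T47D had the larger called response, and less where the mean of the others had. Levels are CPM after TMM, with a prior count of 2 where log2 CPM was taken. Fitted folds did not use this prior count. Against a group at 0 counts they depend on the default prior count of the edgeR fit, and bounds use 3 counts per library in their place. The genes named were, in each class, up to 6 with the largest difference among called genes with mean log2 CPM over 1. These also needed an adjusted p under 0.05 with the same sign against each line, and no overlap of T47D states where T47D was called. Up to 4 called members per list and direction and the HIF pathway genes were also named. Alternatives were DESeq2 1.42.0, voom of limma 3.58.1 with quality weights, RLE and total-count scaling, other filters and thresholds, GC content and length, the replicate block, each line alone and left-out libraries. Promoters are from the RefSeq table and gene lengths from GENCODE 44 lifted to GRCh37 (93.4% of symbols matched). ChIP-seq, tumor and single-cell data and the RNA-seq of the study's other lines were not analysed here. The levels of 2 marker genes of another cell type are not reported here.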

Additional observations from a re-analysis of the deposited data

Results flagged for a closer look

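In 23 named genes the response of T47D differed from that of each other line by a test of its own, in the same direction. All but NDRG1, LDHA and P4HA2 were named by a rule that required this, so for them it is no further result. The smallest of the 3 differences in log2 fold change is given here with the line it was against. Where a T47D state had 0 counts, only its adjusted p is given. Against PC3 this difference was 5.63 for PGF (adjusted p = 1.81e-06), 3.87 for MAP7D2 (adjusted p = 0.00855), 2.30 for ZNF365 (adjusted p = 0.00362), 1.52 for MFSD2A (adjusted p = 0.0308) and 1.10 for DKK1 (adjusted p = 0.0396). Also against PC3, and negative, it was -0.80 for GRB10 (adjusted p = 0.0497), -1.04 for CARD10 (adjusted p = 0.0185), -1.06 for STEAP3 (adjusted p = 0.00421), -1.32 for ERRFI1 (adjusted p = 0.00544), -1.34 for PAG1 (adjusted p = 0.0445), -1.43 for ESPN (adjusted p = 0.0239) and -2.72 for EVA1B (adjusted p = 0.013).

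The nearest line was HCT116 for NDRG1 (1.86, adjusted p = 0.0131), LDHA (1.10, adjusted p = 0.0134), P4HA2 (1.09, adjusted p = 0.0053) and CDC42SE1 (-0.59, adjusted p = 0.0428). The nearest line was A549 for HPCAL4 (3.75, adjusted p = 0.0362), FAM105A (1.28, adjusted p = 0.0439) and SYT12 (-1.77, adjusted p = 0.00773). HPCAL4 had at most 1 count in the normoxic T47D libraries and at most 4 in those of PC3, so its fitted sizes are uncertain. CA9, ARHGAP22, VGLL3 and SRPX2 had 0 counts in every T47D library of 1 oxygen state. The adjusted p was 0.0269 for CA9 against A549, 0.00232 for ARHGAP22 and 0.0296 for SRPX2 against HCT116, and 0.019 for VGLL3 against PC3.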

How the results depend on the processing

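The counts below are, in order, all called genes, genes with a stronger, a weaker and an opposite response, genes that differed from each line, and members of the gene lists called, which were 385, 229, 117, 39, 62 and 54 with edgeR. DESeq2 gave 769, 408, 293, 60 and 127 for the first 5, and voom with quality weights 1025, 688, 246, 86, 206 and 96. Of the 385 genes, 382 were called by DESeq2 and 332 by voom. An adjusted p under 0.01 gave 155, 107, 39, 9, 16 and 26, a test against a fold of 1.2 gave 215, 150, 55, 8, 36 and 34, and a fold over 1.5 left 10 opposite genes. Against HCT116 alone 1460 genes were called, 1178 of them weaker, with 115 list members. Against PC3 alone 72 were weaker and 11 opposite, and against A549 alone 21 were opposite. Leaving out libraries moved the 6 counts between 60 and 474, 29 and 337, 13 and 165, 6 and 52, 8 and 109, and 13 and 61. The lowest values left out 1 replicate of every group, which leaves 2 libraries per group. Leaving out the normoxic T47D library of replicate 2 alone gave 211, 140, 53 and 18 for the first 4 counts and 32 list members. Leaving out normoxic T47D replicate 1 gave 25 opposite genes and 39 that differed from each line, and leaving out hypoxic T47D replicate 3 gave 103 that differed from each line.

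GC content and length offsets gave 176 weaker responses, and the share of positive calls was 51.4% in place of 64.2%. Replicate numbers were checked for pairing: same-numbered hypoxic and normoxic libraries of a line had deviations that correlated at 0.0446 to 0.257, over 0.1 in 6 of 12 pairs, and each of the 12 hypoxic libraries correlated best with its own number. The numbers were not taken as a pairing. The replicate block gave 544 calls (356 of them among the 385), 178 weaker and 66 opposite, without CHAC1 (-1.13) and PDGFB (-0.81) among the named genes, and with GC and length offsets 867, 510, 264, 85, 154 and 88, of which 48.2% were positive. Among named genes that were called, the difference changed sign in 4, each against 1 line alone: CDKN1A (-0.025) and P4HA1 (-0.0016) against HCT116, LOX (-0.26) against A549 and PDGFB (0.0093) against PC3. The causes were not tested. CA9, PGF, MAP7D2, SYT12, PAG1, ESPN, ERRFI1, GRB10, ZNF365, STEAP3, NDRG1, LDHA and P4HA2 were called in every setting in which they were tested.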

Other observations

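Other genes that differed from each of the 3 lines, chosen after their values were seen, included signaling and survival genes. BNIP3, an inducer of mitophagy and a known HIF target, went from 43.9 ± 1.89 to 562 ± 96.7 CPM in T47D (SD, n = 3), above every group mean of the other lines (403 CPM in hypoxic HCT116 at most), with a difference of 1.69 (SE 0.16, adjusted p = 1.01e-06). APLN, a secreted vascular peptide, went from 0.204 ± 0.0164 to 4.61 ± 0.993 CPM, a difference of 3.72 (SE 0.40, adjusted p = 6.99e-06). BMP4, a ligand of the TGF-beta family, went from 26.9 ± 3.53 to 94.2 ± 18.2 CPM while its log2 fold change was between 0.01 and 0.37 in the other lines. TGFB2, of the same family, went from 2.86 ± 0.0767 to 8.39 ± 2.64 CPM.

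The Src family kinases LYN and FYN rose in T47D as well. LYN went from 2.21 ± 0.713 to 10.5 ± 3.91 CPM, against group means between 40.6 and 68.2 CPM in the other lines, and its difference was 2.21 (SE 0.25, adjusted p = 1.26e-05). FYN went from 0.169 ± 0.0814 to 1.60 ± 0.350 CPM, a difference of 2.27 (SE 0.35, adjusted p = 0.000525). KCTD3, a channel regulator, went from 364 ± 56.8 to 660 ± 76.9 CPM, above every group mean of the other lines (149 CPM at most), with a difference of 0.91 (SE 0.16, adjusted p = 0.00163). PYGL, the liver form of glycogen phosphorylase, went from 13.3 ± 1.39 to 53.2 ± 12.1 CPM and was below every group mean of the other lines in normoxia, with a difference of 1.19 (SE 0.21, adjusted p = 0.00211). NEK8, a ciliary kinase, went from 6.69 ± 2.10 to 14.6 ± 5.12 CPM in T47D while its log2 fold change was between -1.06 and -0.46 in the other lines, a difference of 1.90 (SE 0.34, adjusted p = 0.00191).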
